A study of Mus musculus with 19 samples.

Results

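The androgen-responsive genes described here are 9 genes that are widely used as readouts of the androgen response, Fkbp5, Zbtb16, Tsc22d3, Steap4, Ndrg1, Acsl3, Slc45a3, Elovl5 and Azgp1. They were chosen by name, with earlier results of these data known, and all 9 are among the 23284 genes of both deposited tables. RNA-seq was performed on 6 MEF samples, 6 prostates and 7 renal grafts. The MEFs were mouse embryonic fibroblasts of C57BL/6 background with the genotype Nkx3-1tm2(LacZ)Mms /+, taken at E13.5 from the limbs of pooled male and female littermates and sorted to remove blood, endothelial, macrophage and epithelial cells. The prostates came from C57BL/6 mice at 6 weeks of age, which the study describes as wild type. For the grafts, MEFs had received retroviral human OCT4, SOX2, KLF4 and c-MYC and were grown in an epithelial medium that contained dexamethasone (cells called iEpt). These cells, with or without a set of lentiviral factors called NAF, which includes mouse Nkx3.1 and mouse Foxa1, were combined with urogenital mesenchyme of Sprague-Dawley rat embryos, kept overnight with dihydrotestosterone and grown for 6 weeks under the kidney capsule of male nude mice that carried testosterone pellets. The graft RNA can therefore hold mouse transcripts from the kidney and other tissues of the host. It can also hold rat transcripts of the mesenchyme, and how far these were counted under mouse genes was not tested. The labels call all 7 grafts renal grafts. The study lists by name the 5 grafts of the first table (grafts 1 to 5) as iEpt+NAF, and the other 2 (grafts 6 and 7, in a separately normalised table) would be iEpt only by elimination, which the labels do not state. Nothing in the labels says whether the MEF samples were separate cultures or the prostates separate mice, so the p-values measure the spread between these samples.

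Androgens are steroid hormones that raise or lower the transcription of nearby and distant genes, often through inverted repeats of the hexamer AGAACA in the DNA. In prostate epithelium the genes that respond serve secretion, lipid synthesis and ion transport. Glucocorticoids act through much the same DNA element by way of the glucocorticoid receptor, and Fkbp5, Zbtb16 and Tsc22d3 are known to respond to both kinds of hormone.

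All values are normalised expression on the log2 scale of the deposited tables, and differences are between group means on that scale. The depth that the tables imply was 16766264 to 26150588 gene reads per sample for MEFs, prostates and grafts 1 to 5, and 6629314 and 9661585 for grafts 6 and 7. At this depth 3 reads correspond to 1.68 to 2.34 in the 17 samples and to 3.12 and 2.70 in grafts 6 and 7, and values near or below these levels carry added scatter. Prostate secretory transcripts (Pbsn, Sbp, Spink3 and Msmb) marked the prostates, with a summed level of 20.05 to 21.13. The sum was 9.17 to 12.09 in grafts 1 to 5 and 2.24 to 11.62 in MEFs, so these 2 groups overlapped. Of the 4 genes, 1 was called higher in grafts than in MEFs and none lower (29.9% and 12.0% of all genes). MEFs 1 to 4 also held these transcripts, at a median of 0.0520% to 0.181% of the prostate mean. In MEFs 5 and 6 they were at or near 0. The same median was 0.28%, 0.14%, 0.013%, 0.030% and 0.019% in grafts 1 to 5, so grafts 3 to 5 were below MEFs 1 to 4. In each graft Spink3 had the highest share of the 4, at 0.0997% to 1.49%. The 6 MEF samples fell into 3 pairs (1 with 6, 2 with 5 and 3 with 4) whose values correlated at 0.9961 to 0.9965 across genes, against 0.905 to 0.948 for the other 12 MEF pairs. Within these pairs the reads differed by more than counting noise, which separate preparations of 1 culture could also do, so whether the 6 are independent cultures is not known, and every p-value against MEFs may be too small. All 6 were kept, and with the pairs averaged to 3 values the 9 genes gave the same numbers of calls against MEFs. Grafts 4 and 5 stood apart from the other grafts across genes, with correlations of 0.631 to 0.749 to grafts 1 to 3, against 0.835 to 0.892 among grafts 1 to 3 and 0.797 between grafts 4 and 5. Kidney markers were present in every graft. The summed level of Kap, Slc34a1, Umod, Lrp2, Aqp2, Slc22a6 and Cdh16 was 16.38, 10.43, 17.42, 12.85 and 17.37 in grafts 1 to 5, and all 7 genes were above 3 reads there. In prostate the sum was 4.10 to 6.85 with 3 to 6 of the 7 genes at or under 3 reads, and in MEFs it was 7.17 to 8.44, nearly all of it from Lrp2. Other marker lists also differed between grafts and MEFs. Muscle markers (Ckm, Acta1 and Myh4) were called higher in grafts for 3 of 3 genes, leukocyte markers for 2 of 2 tested, basal epithelial markers (Krt5, Krt14 and Trp63) for 3 of 3 and luminal markers for 4 of 4, while 5 of 6 fibroblast markers were lower. The summed muscle level was 10.10 to 15.56 in grafts 1 to 5, lowest in grafts 4 and 5, beside 8.16 to 10.39 in MEFs and 12.39 to 13.25 in prostate. The summed leukocyte level was 9.52 to 10.82 in grafts, 5.33 to 10.22 in MEFs and 7.63 to 9.22 in prostate. The summed basal level was 8.10 in graft 5 and 12.21 to 14.25 in grafts 1 to 4, beside 11.29 to 11.99 in prostate. The part of these tissues in the graft values was not tested.

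To ask how far the grafts carried androgen-responsive expression, each pair of groups was compared. In prostate, 7 of the 9 genes were higher than in MEFs and none was lower. The 7 were Azgp1, Zbtb16, Slc45a3, Steap4, Tsc22d3, Fkbp5 and Acsl3. Of all 14560 genes tested, 27.8% were called higher, 20.5% lower and 48.3% in either direction. A call required an adjusted p-value under 0.05 in limma and a difference of at least 1 on the log2 scale. In the 5 grafts of the first table, 7 of the 9 genes were likewise higher than in MEFs and none was lower, and here Ndrg1 took the place of Acsl3. Of 16121 genes tested, 29.9% were called higher, 12.0% lower and 41.9% in either direction. Between prostate and grafts, 3 of the 9 genes were higher in prostate (Azgp1, Slc45a3 and Zbtb16) and 1 was lower (Ndrg1). Of 16353 genes tested, 10.3% were called higher in prostate, 23.0% lower and 33.3% in either direction. The 3 comparisons share samples, so their counts are not independent of each other. The median difference of the 9 genes was 3.10 for prostate over MEF, 3.07 for grafts over MEF and 0.82 for prostate over grafts, beside 0.17, 0.26 and -0.11 for all genes tested. All 9 passed the filter on low values in each comparison. Zbtb16 and Azgp1 had MEF means of 6.01 and 7.26 on the linear scale, under the minimum of 10 used there, and passed through the other group. In tissue RNA, fewer cells of a type and less RNA per cell cannot be told apart.

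**Figure D1:**
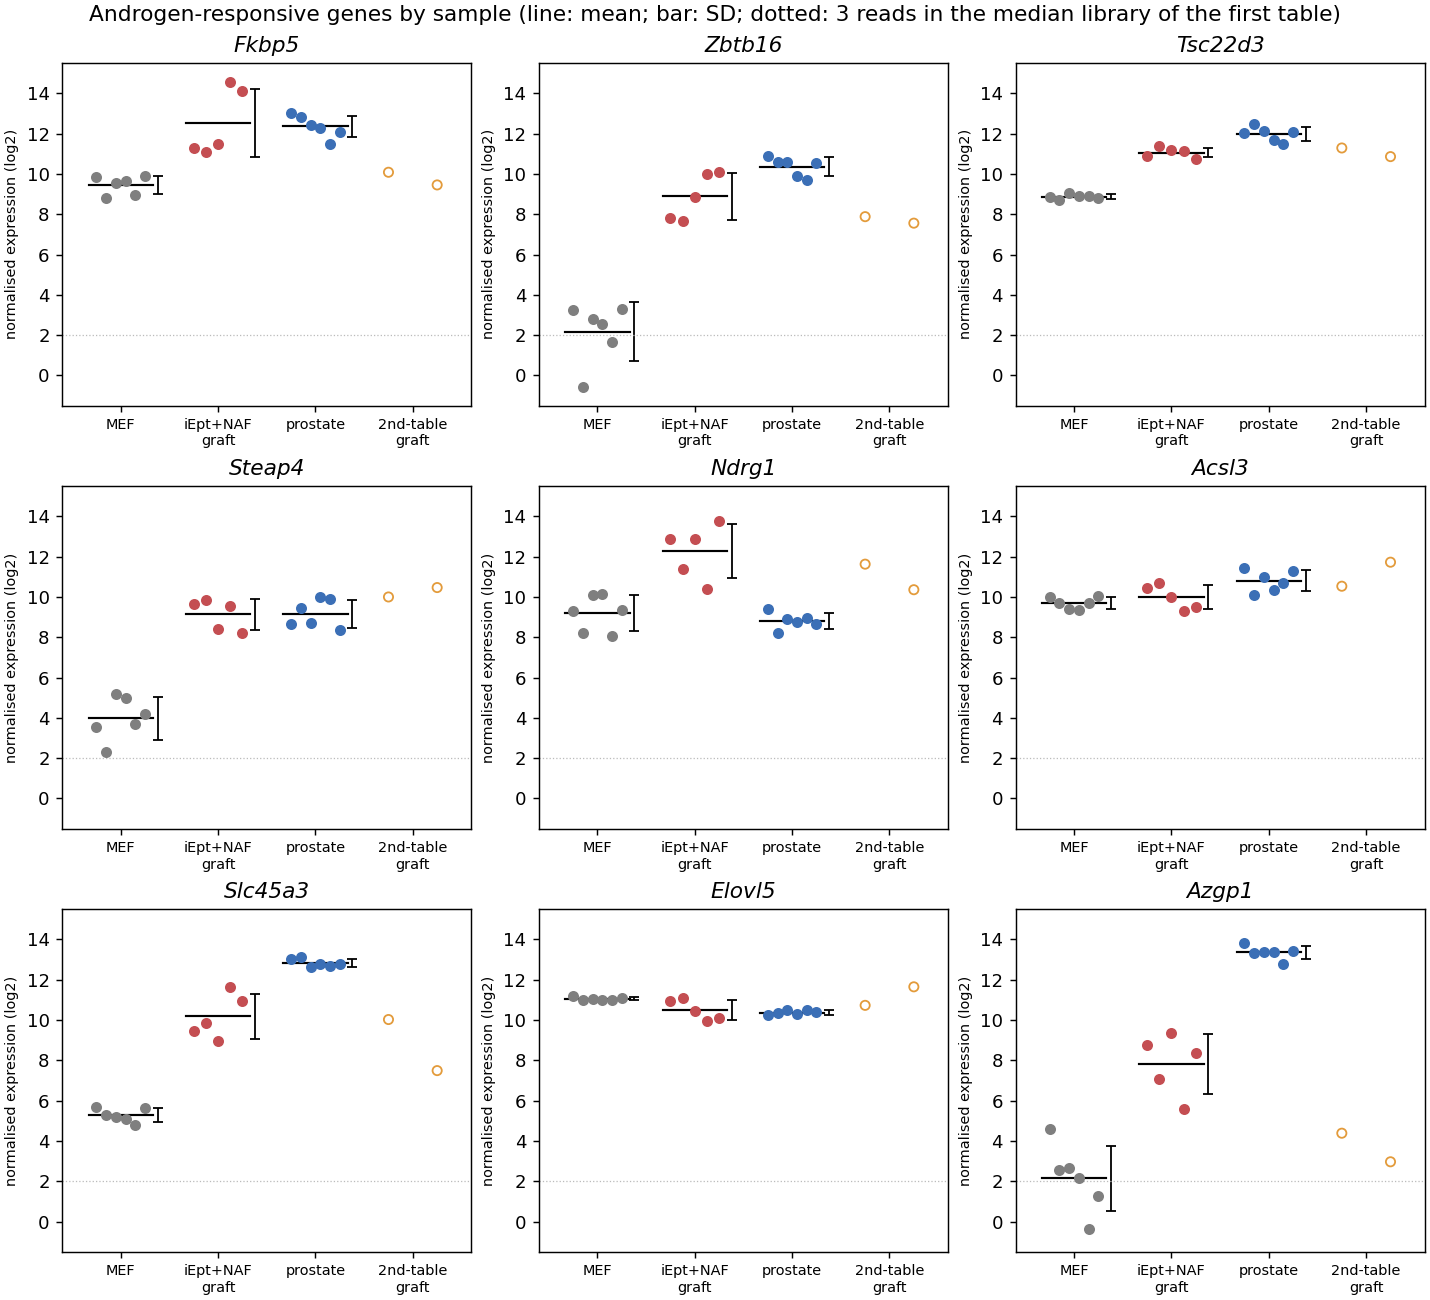
Normalised expression (log2) of the 9 genes in each sample, in MEFs, grafts 1 to 5, prostate and grafts 6 and 7 of the separately normalised table (open circles). Lines are means, bars are SD, and the dotted line is the value of 3 reads in the median library of the first table. Azgp1 lies between 12.79 and 13.84 in prostate and at or below 9.37 in every graft, while Ndrg1 is higher in grafts 1 to 5 than in all prostates and MEFs.

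**Figure D2:**
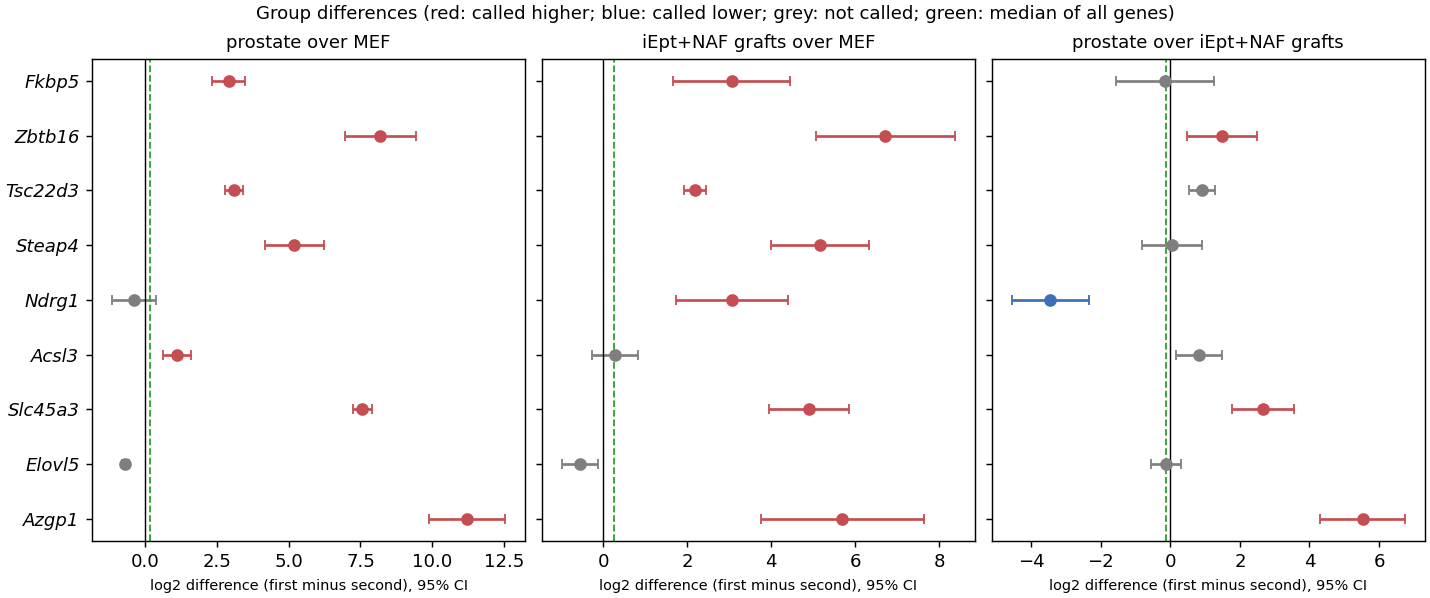
Differences between group means (log2, first group minus second) of the 9 genes with 95% confidence intervals from limma, for the 3 comparisons. Red marks genes called higher, blue lower and grey not called, and the green line is the median of all genes tested. Ndrg1 is the gene called lower in prostate than in grafts, at -3.45.

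Fkbp5 encodes a co-chaperone of Hsp90 that takes part in steroid receptor complexes and is itself induced by androgens and glucocorticoids. It lies on the minus strand of chromosome 17 at chr17:28536040-28654469 in the mouse assembly mm9. Its introns hold 2 perfect 15-base inverted repeats (AGAACA, any 3 bases, then TGTTCT, which reads the same on both strands), and no other of the 9 genes holds any. They are shown as the DNA element that the text above describes, in plus-strand sequence with the hexamers in capitals, the first 75098 bases and the second 97196 bases downstream of the start of the gene.
Fkbp5 intronic element at chr17:28579357-28579385: aaagcctAGAACAagcTGTTCTcaaacaa
Fkbp5 intronic element at chr17:28557259-28557287: agagcacAGAACAcccTGTTCTgaatgtg
The assembly holds 639 such repeats, and 1.29% of genes have at least 1 in their body. Of 1077 genes with a length within 1.25 times that of Fkbp5, 43 (3.99%) have at least 1, and 1 (0.0929%), Fkbp5 itself, has 2. None of the 9 genes has such a repeat within 50000 bases of its start, where 2.03% of 20270 genes do. A match of letters is not evidence of binding, and no binding was measured here.

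Fkbp5 had a value of 8.83 to 9.91 in MEFs (median 9.60) and of 11.50 to 13.01 in prostate (median 12.36). Grafts 1 to 5 had values of 11.27, 11.11, 11.50, 14.56 and 14.11. Every graft was above every MEF, and the grafts fell on both sides of the prostates, with grafts 1 to 3 at or below the lowest prostate and grafts 4 and 5 above the highest. The difference was 2.91 ± 0.26 (SE) for prostate over MEF (n = 6 and 6, limma adjusted p = 2.45e-07) and 3.06 ± 0.64 for grafts over MEF (n = 5 and 6, limma adjusted p = 0.00143). These correspond to 7.52-fold and 8.34-fold. Prostate and grafts differed by -0.15 (95% CI -1.56 to 1.26), an interval that spans folds of 0.340 to 2.39, so the means were not separated while the spread among grafts was 1.68 (SD) against 0.54 in prostate. Without grafts 4 and 5, the libraries that stood apart, the difference of grafts over MEF was 1.84 (limma adjusted p = 0.000141), and prostate exceeded the grafts by 1.07 (limma adjusted p = 0.00625) and was called higher, so the likeness of the 2 means rested on these grafts. With MEFs 1 to 4 left out, the difference of grafts over MEF was 3.09 with a limma adjusted p of 0.0628, and the call was lost. In the separately normalised table, graft 6 had a value of 10.08, just above the MEF range, and graft 7 of 9.45, within it.

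Zbtb16 encodes the zinc finger transcription factor PLZF and was nearly silent in MEFs. It lies on chromosome 9 from 48462416 to 48644050 in mm9. MEF values ran from -0.58 to 3.29 (median 2.68), and MEFs 2 and 5 were at or under 3 reads. The values of grafts 1 to 5 were 7.80, 7.66, 8.83, 10.02 and 10.11, and prostates ran from 9.69 to 10.87 (median 10.56). All 5 were far above the MEFs, grafts 1 to 3 were below all prostates, and grafts 4 and 5 were within the prostate range. The difference was 8.20 ± 0.57 (SE) for prostate over MEF (limma adjusted p = 2.07e-08) and 6.72 ± 0.75 for grafts over MEF (limma adjusted p = 1.81e-05). The size of both rests on MEF values close to the limit of the depth. Prostate exceeded the grafts by 1.48 ± 0.46 (limma adjusted p = 0.0173), or 2.79-fold, which became an adjusted p of 0.0524 when all 3 groups shared 1 estimate of the spread. The difference of prostate over grafts was 2.26 without grafts 4 and 5 (limma adjusted p = 0.000103). Both grafts of the other table were well above the MEFs, at 7.88 and 7.56.

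Tsc22d3 encodes GILZ, a leucine zipper protein known as a glucocorticoid-induced inhibitor of inflammatory signalling. It lies on the minus strand of chromosome X from 137074067 to 137135198 in mm9. Of the 300-base promoter entries of RefSeq (assembly GRCm38.p6), 7 of the 9 genes had one, Zbtb16 and Ndrg1 being the others. The single hexamer AGAACA or its reverse complement TGTTCT occurred in the entries of Tsc22d3 and Azgp1. It lies 185 bases before the start of Tsc22d3 and 14 bases after that of Azgp1. The share among the 27025 genes with an entry was 21.3%, so 2 of 7 is near that background. The stretches around these hexamers, in the direction of the gene and with the hexamer in capitals, show where the promoter-proximal matches are.
Tsc22d3 promoter: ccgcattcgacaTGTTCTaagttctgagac
Azgp1 promoter: tcctgtgtagacTGTTCTcccgggcactac

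The 3 groups were separated in Tsc22d3. MEFs ran from 8.68 to 9.07 (median 8.87), grafts 1 to 5 had values of 10.88, 11.36, 11.19, 11.11 and 10.76, and prostates ran from 11.46 to 12.46 (median 12.05). No group overlapped another, also between grafts and prostates, and the SD among grafts was 0.24, unlike the wide spread of Fkbp5. The difference was 3.10 ± 0.14 (SE) for prostate over MEF (limma adjusted p = 4.66e-10) and 2.19 ± 0.12 for grafts over MEF (limma adjusted p = 1.16e-07). Prostate exceeded grafts by 0.91 ± 0.18 (limma adjusted p = 0.00116), or 1.88-fold, which is below the minimum difference for a call. Across the alternative fits this difference ran from 0.73 to 1.01, and at the highest it passed that minimum and was called. Grafts 6 and 7, at 11.29 and 10.86, were within the range of grafts 1 to 5.

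Steap4 and Slc45a3 encode membrane proteins. Steap4 is a metalloreductase that reduces iron and copper at the cell surface, and it lies on chromosome 5 from 7960472 to 7982213 in mm9. It had values of 2.29 to 5.18 in MEFs (median 3.93). In grafts 1 to 5 it had values of 9.65, 9.87, 8.43, 9.54 and 8.20, and prostates ran from 8.35 to 10.01 (median 9.07). Grafts and prostates overlapped almost fully and all were above the MEFs. The difference was 5.20 ± 0.47 (SE) for prostate over MEF (limma adjusted p = 2.79e-07), or 36.7-fold, and 5.16 ± 0.53 for grafts over MEF (limma adjusted p = 9.65e-06), or 35.7-fold. Prostate and grafts differed by 0.04 (95% CI -0.83 to 0.91), and the sign of this difference changed with the scaling, to -0.033 under a median shift. Graft 6 had a value of 10.00 and graft 7 of 10.47, the latter above every sample of the first table.

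Slc45a3 encodes a sugar transporter of the plasma membrane known in human prostate as prostein, and lies on chromosome 1 from 133867186 to 133879540 in mm9. MEF values were 4.80 to 5.66 (median 5.23) and prostate values 12.62 to 13.14 (median 12.79). Its values in grafts 1 to 5 were 9.46, 9.86, 8.98, 11.63 and 10.95. The 3 groups did not overlap, and every graft lay between the MEFs and the prostates. The difference was 7.57 ± 0.15 (SE) for prostate over MEF (limma adjusted p = 1.95e-12), 4.90 ± 0.43 for grafts over MEF (limma adjusted p = 3.02e-06) and 2.67 ± 0.40 for prostate over grafts (limma adjusted p = 0.00022). The grafts were thus 29.8-fold above MEFs and 6.35-fold below prostate. Leaving out grafts 4 and 5 gave 4.15 for grafts over MEF and 3.41 for prostate over grafts, and both calls held. Prostate secretory transcripts were also found in MEFs 1 to 4, and MEFs 5 and 6, where those markers were at or near 0, had Slc45a3 values of 4.80 and 5.66. The values in grafts 6 and 7 were 10.02 and 7.49.

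Acsl3 and Elovl5 act in lipid metabolism, Acsl3 by activating long-chain fatty acids as acyl-CoA and Elovl5 by elongating polyunsaturated fatty acids. Both were expressed in all samples, with smaller differences between groups than the genes above. Acsl3, on chromosome 1 from 78654400 to 78703562 in mm9, had values of 9.35 to 10.03 in MEFs (median 9.70) and of 10.12 to 11.43 in prostate (median 10.85). In grafts 1 to 5 the values were 10.44, 10.69, 10.01, 9.29 and 9.51, from just below the lowest MEF to within the prostates. The difference was 1.11 ± 0.22 (SE) for prostate over MEF (limma adjusted p = 0.000383), or 2.16-fold. This call was lost at 0.99 without prostate 1 and at 0.94 without MEFs 1 to 4, both just under the minimum difference of 1. Grafts over MEF gave 0.29 (95% CI -0.27 to 0.84) and prostate over grafts 0.82 ± 0.30 (limma adjusted p = 0.0363), and neither was called. Without graft 2 the latter was 1.00 and was called, and without grafts 4 and 5 it was 0.43.

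Elovl5, on chromosome 9 from 77765171 to 77832326 in mm9, was higher in MEFs than in prostate. MEFs ran from 10.98 to 11.20 (median 11.03), prostates from 10.23 to 10.50 (median 10.36), and grafts 1 to 5 had values of 10.96, 11.07, 10.45, 9.94 and 10.08. Prostates and MEFs did not overlap, and graft 2 was within the MEF range while grafts 4 and 5 were below all prostates. The difference was -0.69 ± 0.06 (SE) for prostate over MEF (limma adjusted p = 2.15e-07) and -0.56 ± 0.19 for grafts over MEF (limma adjusted p = 0.0252), both smaller than a call requires. Prostate over grafts gave -0.13 (95% CI -0.56 to 0.30). In grafts 6 and 7 the values were 10.53 and 11.73 for Acsl3 and 10.73 and 11.65 for Elovl5, so graft 7 was above every sample of the first table for both genes.

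Ndrg1 encodes a cytoplasmic protein that is induced by androgens, differentiation and low oxygen, and lies on the minus strand of chromosome 15 from 66760883 to 66801202 in mm9. It was the only one of the 9 genes that was called lower in prostate than in grafts. Grafts 1 to 5 had values of 12.88, 11.39, 12.87, 10.42 and 13.78, MEFs ran from 8.07 to 10.16 (median 9.33) and prostates from 8.22 to 9.42 (median 8.83). Every graft was above every MEF and every prostate, while MEFs and prostates overlapped. The difference was 3.07 ± 0.61 (SE) for grafts over MEF (limma adjusted p = 0.00102), or 8.37-fold, and -3.45 ± 0.51 for prostate over grafts (limma adjusted p = 0.000185), which is 10.9-fold lower in prostate. Prostate over MEF gave -0.38 (95% CI -1.16 to 0.39), which turned to 0.11 without MEFs 1 to 4. Grafts 1, 3 and 5, which had the highest summed kidney markers, were also the highest in Ndrg1. With these 3 left out, the 2 remaining grafts exceeded MEFs by 1.70 (limma adjusted p = 0.043) and prostate over grafts was -2.08 (limma adjusted p = 0.00111), so both calls held at a smaller size. The part of kidney transcripts in the remaining difference was not tested. Graft 6, at 11.63, and graft 7, at 10.36, were above all prostates and MEFs.

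Azgp1 encodes zinc-alpha-2-glycoprotein, a secreted protein of prostatic fluid and other secretions, and lies on chromosome 5 from 138422749 to 138431461 in mm9. Among the 9 genes it had the largest differences of prostate over MEF and of prostate over grafts. Prostates ran from 12.79 to 13.84 (median 13.39), and grafts 1 to 5 had values of 8.75, 7.09, 9.37, 5.61 and 8.35. MEFs 1 to 6 had values of 4.58, 2.54, 2.64, 2.15, -0.36 and 1.27, and the last 2 of these were under 3 reads. The 3 groups did not overlap. The difference was 11.22 ± 0.61 (SE) for prostate over MEF (limma adjusted p = 2.04e-09), 5.70 ± 0.88 for grafts over MEF (limma adjusted p = 0.000188) and 5.53 ± 0.56 for prostate over grafts (limma adjusted p = 1.31e-05), the last being 46.1-fold.

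Azgp1 was highest in MEF 1 and lowest in MEFs 5 and 6, and the secretory transcripts were likewise highest in MEF 1 and at or near 0 in MEFs 5 and 6. Values in MEFs 2 to 4 were close to the level of 3 reads, which was 2.01 to 2.08 there. At the median share of the 4 secretory transcripts, the prostate mean of Azgp1 would give about 4.39 in MEF 1. In MEFs 2 to 4 it would give about 2.88, 3.21 and 2.85. Whether prostate transcripts make up the MEF values was not tested. Without MEFs 1 to 4 the difference was 12.90 for prostate over MEF and 7.37 for grafts over MEF, and both calls held. In the grafts, Azgp1 was highest in grafts 1, 3 and 5, as were the kidney markers. Without these 3 the difference was 4.21 for grafts over MEF (limma adjusted p = 0.0156) and 7.01 for prostate over grafts (limma adjusted p = 1.1e-05). The part of kidney transcripts in the graft values was not tested. Graft 6, with a summed kidney level of 15.23, had an Azgp1 value of 4.38, and graft 7, with 11.53, had 2.96. Both were within the MEF range only through MEF 1, since MEFs 2 to 6 were at or below 2.64. The value of graft 7 was close to its level of 3 reads, 2.70. Grafts 6 and 7 were normalised separately, so their distance from the MEFs was not tested.

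**Figure D3:**
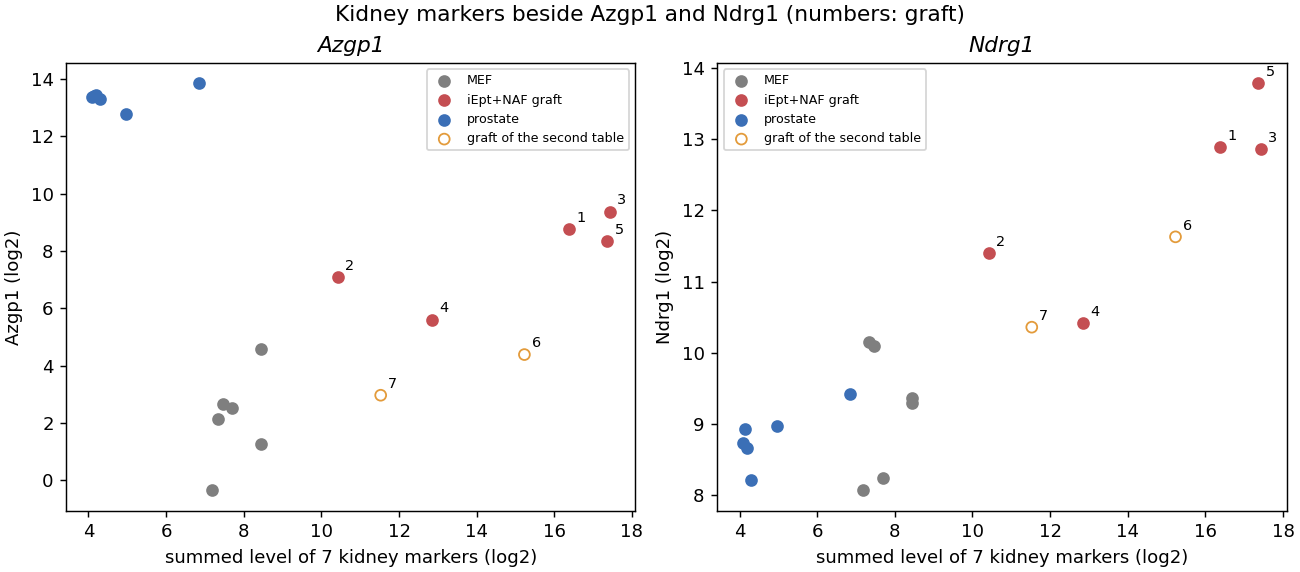
Azgp1 (left) and Ndrg1 (right) in each sample (log2) against the log2 summed level of 7 kidney markers, with grafts numbered. Open circles are grafts 6 and 7 of the separately normalised table. Grafts 1, 3 and 5, with summed levels of 16.38, 17.42 and 17.37, have the 3 highest graft values of both genes, and no correlation was computed over 5 grafts.

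From graft to graft, the 9 genes differed in how grafts 4 and 5 lay beside grafts 1 to 3. Fkbp5, Zbtb16 and Slc45a3 were higher in grafts 4 and 5 than in all of grafts 1 to 3, and Acsl3 and Elovl5 were lower. In Tsc22d3, Steap4, Ndrg1 and Azgp1 the 2 sets of grafts overlapped. Grafts 4 and 5 also stood apart from the others across all genes, and the share of all genes that separated them was not computed. Against the range of the 6 prostates, Tsc22d3, Slc45a3 and Azgp1 were below it in all 5 grafts, and only Ndrg1 was above it in all 5. The share of all genes outside that range was not computed.

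**Figure D4:**
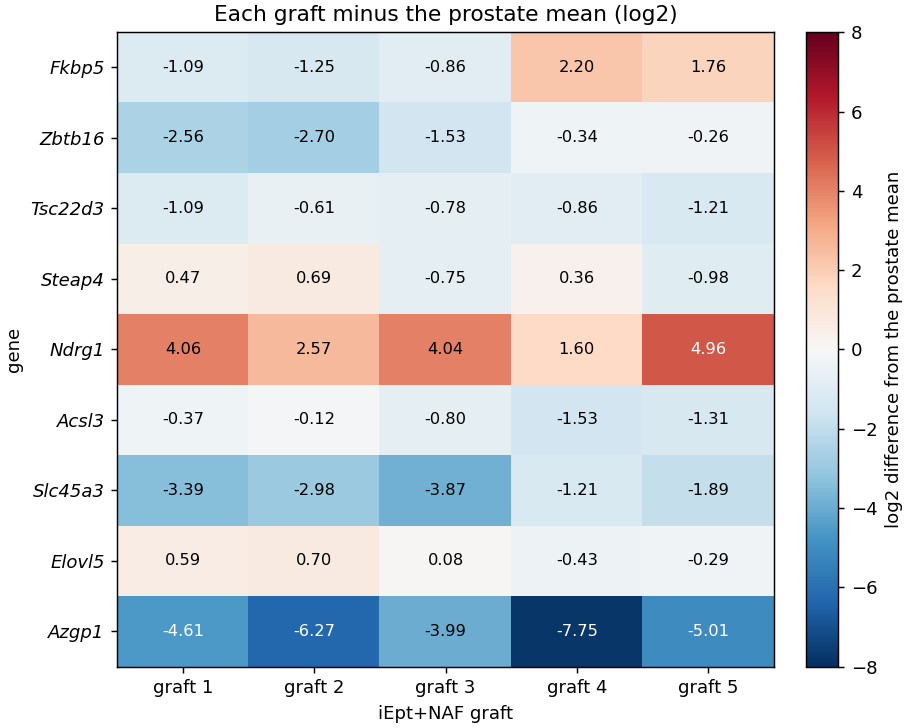
Each graft's value minus the prostate mean (log2) for the 9 genes in grafts 1 to 5, in colour and in numbers (red higher than prostate, blue lower). Fkbp5 is above the prostate mean in grafts 4 and 5 and below it in grafts 1 to 3, Azgp1, Slc45a3, Zbtb16, Tsc22d3 and Acsl3 are below it in all 5 grafts, and Ndrg1 is above it in all 5.

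Genes of 3 steroid receptors were examined in the same samples. Nr3c1, the glucocorticoid receptor gene, was expressed throughout, at 10.93 to 11.49 in MEFs, 9.88 to 10.92 in grafts 1 to 5 and 10.16 to 10.31 in prostate, and was called in no comparison, with -0.99 for prostate over MEF, -0.83 for grafts over MEF and -0.16 for prostate over grafts. The first of these lies at the minimum difference, and under a median shift it just passed that minimum and Nr3c1 was called lower in prostate. Nr3c2, the mineralocorticoid receptor gene, was higher in prostate than in MEFs by 4.94 and than in grafts by 1.87 (limma adjusted p = 1.23e-10 and 0.0103), and higher in grafts than in MEFs by 3.07 (limma adjusted p = 0.000777), the last of which was 1.05 and not called under quantile normalisation. Pgr, the progesterone receptor gene, was higher in prostate than in MEFs by 2.21 and than in grafts by 2.27 (limma adjusted p = 0.00204 and 0.00489), while grafts over MEF gave -0.06 (95% CI -1.80 to 1.68), which was -2.35 and called lower under quantile normalisation (limma adjusted p = 0.00336).

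Other genes known to respond to androgens were examined as a list of 46, of which 45 were in the table and 44 were tested in each comparison. The list overlaps the paralogues in Steap1, Steap2 and Tsc22d1. Of the 44 tested, 15 were higher and 13 lower in prostate than in MEFs, where 27.8% and 20.5% of all genes were, 9 were higher and 13 lower in grafts than in MEFs (29.9% and 12.0% of all genes), and 14 were higher and 8 lower in prostate than in grafts (10.3% and 23.0%). Their median differences were 0.05, 0.00 and -0.04, beside 0.17, 0.26 and -0.11 for all genes.

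Genes of protein folding, glycosylation and export, together with Ell2, Creb3l4 and Tpd52, were compared first. These last 3 were higher in prostate than in grafts by 1.53, 1.79 and 1.55, and they are part of the counts that follow. Of 10 tested, 8 were called higher in prostate than in grafts and none lower, where 10.3% and 23.0% of all genes were, with a median difference of 1.58 beside -0.11 for all genes. Spcs3, a signal peptidase subunit, was higher by 2.04 ± 0.12 (SE, limma adjusted p = 4.51e-07), Dnajb9, a chaperone of the endoplasmic reticulum, by 1.99 ± 0.18 (limma adjusted p = 6.64e-06) and Sec24d, a coat protein of export vesicles, by 1.97 ± 0.16 (limma adjusted p = 2.78e-06). Against MEFs the same list gave 3 higher and none lower in prostate (27.8% and 20.5% of all genes), led by Creb3l4 at 5.06, Tpd52 at 3.18 and Dnajb9 at 2.28. In grafts over MEF, 2 were higher, Creb3l4 at 3.27 and Tpd52 at 1.63, and 3 were lower, Sec24d at -2.40, Lman1 at -1.45 and Spcs3 at -1.38, where 29.9% and 12.0% of all genes were called.

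In the list of sterol and fatty acid synthesis, 10 genes were in the table. Of 9 tested against MEFs, 6 were lower in prostate and none higher, with a median difference of -1.66, and 6 were lower in grafts and none higher, with a median of -1.13. Of all genes, 20.5% were lower and 27.8% higher in prostate, and 12.0% and 29.9% in grafts. The count of 6 in grafts fell to 3 under quantile normalisation and to 3 without grafts 1, 3 and 5. In prostate they included Fads2 at -2.73 and Fads1 at -2.72, which encode fatty acid desaturases. In grafts they included Fads1 at -1.54, Fasn, the fatty acid synthase gene, at -1.26 and Insig1, a regulator of sterol synthesis, at -1.22. The Fasn call in grafts was lost under quantile normalisation, at -0.69, and without MEFs 1 to 4, at an adjusted p of 0.0526, and the Insig1 call without grafts 1, 3 and 5, at -0.94. Acsl3 and Elovl5 belong to the same area of metabolism, and Elovl5 also had negative differences against MEFs. Between prostate and grafts, 1 gene was higher in prostate, Scd1 at 1.71, and 4 were lower, where 10.3% and 23.0% of all genes were. The 4 included Fads2 at -1.70 and Fads1 at -1.18, the last of which was -0.95 without grafts 1, 3 and 5. The median of prostate over grafts was -0.90, and -0.19 under quantile normalisation.

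Among genes of signalling and transcription, Spdef, an epithelial transcription factor, was higher in prostate than in MEFs by 9.38 and in grafts by 7.13, and higher in prostate than in grafts by 2.25. Homer2, a scaffold protein, was higher by 2.48 and 2.86 against MEFs, and Zbtb10 was higher in prostate than in MEFs by 2.40 and than in grafts by 1.90. Pmepa1, an inhibitor of TGF-beta signalling, was lower than in MEFs by -4.28 in prostate and -2.21 in grafts, and Arid5b by -2.99 and -2.49. Pmepa1 was also lower in prostate than in grafts, at -2.08. Inpp4b was lower in prostate than in MEFs at -1.18 and in prostate than in grafts at -1.22, but with an adjusted p of 0.0859 with MEF pairs averaged and a difference of 0.27 under quantile normalisation. Camkk2 was lower in grafts than in MEFs at -1.05, which was not called under a median shift, at -0.99, or without grafts 4 and 5, at -0.98. Of 11 genes, 4 were higher and 4 lower in prostate over MEF, 2 and 3 in grafts over MEF, and 2 and 2 in prostate over grafts. The shares of all genes were 27.8% and 20.5%, 29.9% and 12.0%, and 10.3% and 23.0%.

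Among transporters and other targets, Tmprss2, a membrane serine protease, was higher than in MEFs by 10.24 in prostate and 8.48 in grafts. Its MEF mean was 2.45, close to the level of 3 reads, which limits the size of both. Prostate exceeded grafts in Tmprss2 by 1.76. Hpgd, which breaks down prostaglandins, was higher than in MEFs by 3.38 and 2.32, and in prostate than in grafts by 1.06, which was 0.42 without grafts 1, 3 and 5. Without grafts 4 and 5 its call in grafts over MEF was lost, at an adjusted p of 0.062. Ncoa4 was higher in prostate than in MEFs by 2.52 and than in grafts by 2.25. Aldh1a3 was higher in grafts than in MEFs by 2.73. Slc26a2 was lower in prostate than in MEFs at -2.15 and than in grafts at -2.74, Steap2 at -2.21 and -2.01, and Slc38a2 was lower than in MEFs at -1.41 in prostate and -1.17 in grafts, the latter at -0.60 under quantile normalisation. Of 10 genes tested, 6 were higher and 3 lower in prostate over MEF, 4 and 1 in grafts over MEF, and 3 and 2 in prostate over grafts, beside the same shares of all genes. Without grafts 4 and 5, 3 were lower in grafts over MEF, with Steap1 at -1.39 and Steap2 at -1.01 added. Of the 4 genes of polyamine and sugar metabolism, Sord, which makes fructose from sorbitol, was higher than in MEFs by 4.14 in prostate and 3.09 in grafts, and Sms, the spermine synthase gene, by 1.30 in prostate, which was 0.97 under quantile normalisation. These were 2 of the 4 called higher in prostate (27.8% of all genes) and 1 in grafts (29.9%), and the latter was 3 under quantile normalisation. None of the 4 was called between prostate and grafts, where 33.3% of all genes were. With MEFs 1 to 4 left out, Aldh1a3 and Sord were not called in grafts over MEF, at adjusted p-values of 0.0553 and 0.0535.

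**Figure D5:**
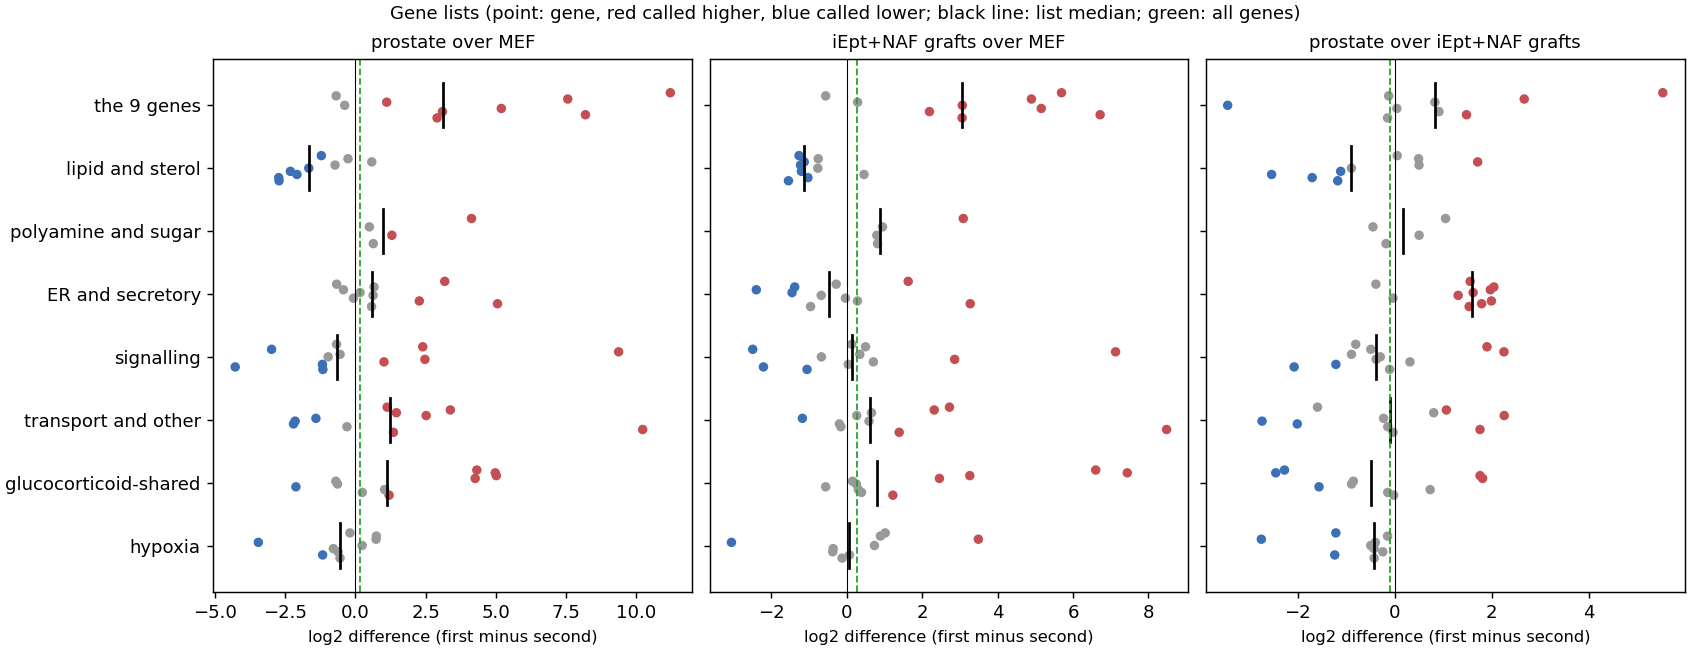
Differences between group means (log2, first group minus second) of single genes, by list, for the 3 comparisons. Each point is a gene, red called higher, blue called lower and grey not called, the black line is the list's median, and the green line is the median of all genes tested. The 9 genes have medians of 3.10, 3.07 and 0.82, while the lipid and sterol list lies below 0 at -1.66, -1.13 and -0.90, the last of which was -0.19 under quantile normalisation.

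Genes shared with the glucocorticoid response gave 5 higher and 1 lower of 10 in prostate over MEF (27.8% and 20.5% of all genes), and 5 higher and none lower in grafts over MEF (29.9% and 12.0%). Hif3a was higher than in MEFs by 4.98 in prostate and 7.44 in grafts, Fam107a by 4.33 and 6.60, and the metallothionein gene Mt2 by 5.02 and 3.26. The MEF means of Hif3a and Fam107a were 1.59 and 1.70, under the level of 3 reads there. The size of their differences against MEFs thus rests on values at the limit of the depth. Dusp1, a phosphatase of MAP kinases, was lower in prostate than in MEFs at -2.12 (limma adjusted p = 0.0018), and with an adjusted p of 0.0527 without MEFs 1 to 4. Between prostate and grafts 2 of the 10 were higher in prostate, Mt1 at 1.81 and Mt2 at 1.76, and 3 were lower (10.3% and 23.0% of all genes), Hif3a at -2.46, Fam107a at -2.28 and Dusp1 at -1.56, the last with an adjusted p of 0.0973 without grafts 1, 3 and 5. The median differences were 1.12, 0.81 and -0.50. Tsc22d3, Zbtb16 and Fkbp5, which respond to both hormones, were all higher in prostate and grafts than in MEFs.

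Since Ndrg1 also responds to low oxygen, 9 hypoxia genes were tested. In grafts over MEF 1 was higher, Egln3 at 3.49 ± 0.44 (SE, limma adjusted p = 4.32e-05), and 1 lower, Adm at -3.06, with a median of 0.07, where 29.9% and 12.0% of all genes were called. With grafts 4 and 5 left out, 3 were higher, with Ankrd37 at 1.51 and Pdk1 at 1.19 added. In prostate over grafts none was higher and 3 were lower, Egln3 at -2.75, Slc2a1, the glucose transporter gene, at -1.24 and Ankrd37 at -1.22, the last of which was -0.16 under quantile normalisation, where 10.3% and 23.0% of all genes were called. In prostate over MEF 2 were lower, Adm at -3.46 and Slc2a1 at -1.17, where 20.5% of all genes were. Egln3, which encodes an oxygen-sensing hydroxylase, was thus called higher in grafts than in both other groups, as Ndrg1 was. Whether low oxygen has a part in either gene was not tested. The median was -0.43 in prostate over grafts and -0.55 in prostate over MEF.

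Paralogues, the close relatives of the 9 genes, were compared in the same way. Of 19 paralogues tested in prostate over MEF, 4 were higher, led by Elovl7 at 3.49, Ndrg2 at 2.44 and Acsl1 at 2.12, and 6 were lower, led by Elovl6 at -3.56, Ndrg4 at -3.36 and Elovl4 at -3.32, beside 27.8% and 20.5% of all genes. Of 21 tested in grafts over MEF, 6 were higher, led by Elovl2 at 5.01, Acsl6 at 3.81 and Elovl7 at 3.66, and 2 were lower, Tsc22d2 at -2.24 and Steap3 at -1.87, the latter with an adjusted p of 0.0653 without MEFs 1 to 4, beside 29.9% and 12.0% of all genes. Without grafts 4 and 5, 6 were lower, among them Steap1 and Steap2, and without MEFs 1 to 4, 4 were. In prostate over grafts 1 was higher, Acsl4 at 1.46, and 7 were lower, led by Elovl2 at -4.27, Elovl4 at -4.18 and Acsl6 at -3.94, beside 10.3% and 23.0% of all genes. Elovl2 was not called without grafts 1, 3 and 5, at -2.14. Its means were 1.79 in MEFs, under the level of 3 reads, and 2.53 in prostate, close to that level. The median differences were -0.08, 0.58 and -0.63, beside 3.10, 3.07 and 0.82 for the 9 genes.

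For each of the 9 genes, the gene with the most similar pattern was taken as that with the highest Pearson correlation over the 17 samples of the first table, among 14203 genes tested in all 3 comparisons. They were 1190007F08Rik for Fkbp5 (r = 0.974), Mlx for Zbtb16 (r = 0.985), Nme3 for Tsc22d3 (r = 0.985), Nmi for Steap4 (r = 0.975), Oplah for Ndrg1 (r = 0.967), Ypel2 for Acsl3 (r = 0.929), Fam174b for Slc45a3 (r = 0.994), Ttl for Elovl5 (r = 0.959) and Defb1 for Azgp1 (r = 0.992). None of these is itself among the 9. The samples share groups, depth and tissue makeup, so the correlations describe mostly the differences between the 3 groups.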

How the data were processed

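The authors sequenced RNA and deposited log2 values per gene, normalised with DESeq. MEFs, prostates and grafts 1 to 5 (17 samples) share a table, and grafts 6 and 7 have their own. The labels' processing notes name bcl2fastq 1.8.4, TopHat, Cufflinks, DESeq and the build mm9, without roles. The counting settings, including strand, are not given in the sources used here. Values from 11.5 to 15 equalled whole reads times a constant of the sample (100% within 0.05 reads), which gave the estimated depths. Such floors cover counting error only. No sample column was left out.

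Groups were compared with limma 3.58.1 (trend) in R 4.3.3, two-sided, over the samples of the 2 groups and those genes whose mean was 10 or more on the linear scale, with Benjamini-Hochberg adjustment over all genes tested. A call needed an adjusted p under 0.05 and an absolute log2 difference of at least 1. The log2 scale compresses low values, so differences against near-silent groups are understated. The fit was tested on simulated data. Grafts 6 and 7 entered no test, since their table was normalised separately. The members and lists were chosen with earlier results of these data known. The 9 genes, 3 receptors, up to 3 called genes per list, direction and comparison, and 1 most similar gene per member are named, except a few that are not reported here. GENCODE M1 gave gene positions (mm9), and RefSeq gave promoters (GRCm38.p6). Python 3.11.15, numpy 2.4.6, pandas 2.3.3 and matplotlib 3.10.9 were used. The alternatives changed the pseudocount, filter, scaling, samples in the fit and minimum difference, and left out each sample in turn.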

Additional observations from a re-analysis of the deposited data

Results flagged for a closer look

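No value of the 9 genes stood apart from its own group of 5 or 6 samples by Dixon's ratio, in 27 sets, of which chance alone would flag about 1 in 20. Grafts 6 and 7, which entered no comparison, both had values above the highest MEF for some of the 9 genes. The share of all genes above the highest MEF in both grafts was not computed. The lower of the 2 grafts was at 7.56 for Zbtb16 (highest MEF 3.29), 10.86 for Tsc22d3 (9.07), 10.00 for Steap4 (5.18), 10.36 for Ndrg1 (10.16), 10.53 for Acsl3 (10.03) and 7.49 for Slc45a3 (5.66). These were set across 2 tables that were normalised separately, so the differences were not tested. That of Ndrg1 is small beside the SD of 0.89 among MEFs, while for Acsl3 the SD among MEFs was 0.29. Kidney markers were present in both grafts, and their part in these values was not tested.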

How the results depend on the processing

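Of 540 alternative values for the 27 single-gene results, 516 kept the direction and the side of the threshold, 4 lost a call, 6 gained one and 14 changed sign, all of the last among differences that were not called in the results above. No paired analysis was possible because the replicate numbers only name samples in accession order and tie no sample of a group to one of another. Leaving out each sample in turn, the 9 genes gave 6 to 7 higher in prostate over MEF, 7 in grafts over MEF, and 3 to 4 higher in prostate over grafts. Sign changes in prostate over grafts were Steap4 at -0.033 under a median shift and -0.53 without grafts 1, 3 and 5. Without grafts 4 and 5, Fkbp5 was 1.07 and called, and Steap4 -0.14. Without single samples, Steap4 ranged from -0.19 to 0.22, Fkbp5 from -0.50 to 0.36 and Elovl5 from -0.27 to 0.015. Ndrg1 in prostate over MEF was 0.11 without MEFs 1 to 4. Without a minimum difference, the calls rose to 11772 (6544 higher, 5228 lower) in prostate over MEF, 10573 (4088 lower) in grafts over MEF and 9093 (3978 higher) in prostate over grafts, and the 9 genes gave 1 lower against MEFs in each comparison and 5 higher in prostate over grafts. Quantile normalisation turned the split to 2828 higher and 3830 lower in grafts over MEF and to 3176 higher and 2455 lower in prostate over grafts, with medians of all genes at -0.20 and 0.14, while the counts of the 9 genes did not change. Leaving out MEFs 1 to 4 gave 3132 higher in grafts over MEF. The averaging of MEF pairs and the removal of grafts 1, 3 and 5 or of grafts 4 and 5 were chosen after seeing the data. Among the 9 genes, depth limits Zbtb16 and Azgp1 in MEFs, where values reach the level of 3 reads. Of the other named genes, Spdef, Hif3a, Fam107a and Elovl2 had MEF means under that level, and Tmprss2 one close to it.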
